A study of Mus musculus with 14 samples.

Results

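Broad domains of the histone mark H3K4me3 on day 3 of cartilage differentiation were defined from the widths of the deposited peaks. In each of the 2 day 3 lists, peaks separated by 1000 bp or less were joined into stitched regions. A region of replicate 1 was kept when it was 4000 bp or wider and overlapped a region of replicate 2 that was also 4000 bp or wider. This left 469 domains out of 24714 stitched regions in replicate 1 and 22319 in replicate 2. Of the regions in replicate 1, 16704 overlapped a region of replicate 2 and are called shared regions below, and 16235 of these were narrower than the rule required in at least 1 library. Width on day 3 therefore chose the domains and is given as a description only.

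The cells were ATDC5, a mouse teratocarcinoma-derived line that can be driven to form cartilage-like matrix. Per the labels, cells spotted as dense droplets were differentiated in medium with an ascorbate and β-glycerophosphate and were fixed on days 0, 3 and 10, with all groups drawn from the same line and no untreated culture beside the later days. Chromatin immunoprecipitation with sequencing used an antibody against H3K4me3 or against RUNX2, with 2 libraries for each antibody and day, and the labels leave unstated whether the 2 came from separate cultures. The 2 input libraries were not analysed here, and the read depth of each library is unknown.

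H3K4me3 is the trimethylated form of lysine 4 of histone H3 and marks nucleosomes around the starts of active and poised genes. Most such marks flank a start closely, whereas a small set of genes carries the mark over several kilobases into the transcribed region. In other cell systems these broad domains are known to lie at genes of cell identity and at genes with high and steady transcription. RUNX2 is a runt-domain transcription factor needed for bone formation and for the maturation of growth plate chondrocytes.

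Promoters of 4 genes with a broad domain are shown because the report turns on their domains: Acan, Col11a1, Foxc1 and Phospho1. Acan had no H3K4me3 peak called at its domain on day 0, and Foxc1, a chondrocyte factor, has one of the 15 widest domains. Each promoter window runs from 250 bases before to 50 bases after the transcript start in the RefSeq table of GRCm38.p6. Capitals mark the hexamers TGTGGT or TGCGGT, found on either strand.
Acan (chr7:79052976-79053275, + strand): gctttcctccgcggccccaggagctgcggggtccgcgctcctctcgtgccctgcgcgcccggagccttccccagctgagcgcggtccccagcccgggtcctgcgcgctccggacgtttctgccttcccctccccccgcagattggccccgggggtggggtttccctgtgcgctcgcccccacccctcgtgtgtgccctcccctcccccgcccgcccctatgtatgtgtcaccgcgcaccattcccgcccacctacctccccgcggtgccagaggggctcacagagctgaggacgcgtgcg
Col11a1 (chr3:114030290-114030589, + strand): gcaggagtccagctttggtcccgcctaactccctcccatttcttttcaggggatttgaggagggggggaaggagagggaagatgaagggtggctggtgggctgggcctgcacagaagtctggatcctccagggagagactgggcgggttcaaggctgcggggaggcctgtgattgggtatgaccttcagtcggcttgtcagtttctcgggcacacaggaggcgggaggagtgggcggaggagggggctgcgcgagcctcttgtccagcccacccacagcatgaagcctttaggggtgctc
Foxc1 (chr13:31806396-31806695, + strand): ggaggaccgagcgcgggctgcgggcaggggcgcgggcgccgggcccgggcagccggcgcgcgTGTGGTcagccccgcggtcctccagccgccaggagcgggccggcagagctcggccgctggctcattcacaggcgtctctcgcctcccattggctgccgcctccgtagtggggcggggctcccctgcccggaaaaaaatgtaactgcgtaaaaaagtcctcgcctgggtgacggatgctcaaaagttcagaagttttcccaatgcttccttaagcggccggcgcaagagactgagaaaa
Phospho1 (chr11:95824250-95824549, + strand): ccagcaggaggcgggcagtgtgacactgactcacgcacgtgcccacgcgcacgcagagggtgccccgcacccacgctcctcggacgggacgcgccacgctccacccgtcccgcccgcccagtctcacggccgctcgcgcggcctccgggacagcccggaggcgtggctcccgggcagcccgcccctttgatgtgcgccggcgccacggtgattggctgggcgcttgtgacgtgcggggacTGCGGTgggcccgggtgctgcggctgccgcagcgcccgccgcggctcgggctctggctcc
TGTGGT occurred in Foxc1 and TGCGGT in Phospho1, and neither hexamer was in the windows of Acan and Col11a1. All 4 windows overlapped an H3K4me3 peak in both day 3 libraries, and all but that of Foxc1 overlapped a RUNX2 peak in both day 3 libraries. The Foxc1 window overlapped a RUNX2 peak in replicate 2 alone.

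The domains also held 14 of the 1005 annotated miRNA hairpins, in 13 domains. Mature sequences of 8 of these miRNAs are shown, chosen after their domains were seen, with the seed (bases 2 to 8) in capitals.
miR-140-3p: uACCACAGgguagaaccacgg
miR-199a-5p: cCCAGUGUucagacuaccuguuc
miR-214-3p: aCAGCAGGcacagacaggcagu
miR-125b-5p: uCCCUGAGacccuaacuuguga
let-7i-5p: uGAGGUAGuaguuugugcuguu
miR-21a-5p: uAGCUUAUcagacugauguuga
miR-22-3p: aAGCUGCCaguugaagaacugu
miR-322-5p: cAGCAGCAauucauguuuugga
The 25 mature miRNAs listed for the 14 hairpins carried 25 distinct seeds, so no seed was shared among those listed. Of Mir140 only the 3p arm was listed, and arms not listed were not compared. A hairpin lay in 2.77% of the broad domains (exact Clopper-Pearson 95% interval 1.48 to 4.69%), against 0.641% of all shared regions. Wide regions offer more bases for a hairpin to fall in, and the share for regions of 3 to 4 kb was 1.41%.

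The lists differed in length within a day. H3K4me3 peaks on assembled chromosomes numbered 13765 and 20863 on day 0, 28653 and 26781 on day 3, then 15219 and 29022 on day 10. Regions of 4000 bp or more numbered 117 and 340, 900 and 486, and 131 and 693 on the same days. Replicate 1 was thus the shorter list on days 0 and 10. The cartilage markers Sox9 and Col2a1 had a peak at a gene end in all 6 lists, and Acan in the 4 of days 3 and 10. Of the osteoblast markers, Sp7 had one in all 6, Ibsp in the 2 of day 10 and Bglap in 1 of day 10. Among markers of other cell types, Tubb3 (neuron), Pparg (adipocyte) and Scx (tendon) also had one in all 6 lists, Spi1 (blood) and Epcam (epithelium) in 5 and Cdh1 (epithelium) in 2. Myod1, Myog, Neurod1, Ptprc, Cdh5, Pecam1, Pou5f1, Nanog, Adipoq and Tnmd had none in any list. A total of 4 domains held rRNA genes or RUNX2 peaks of days 0 and 10 and are called repeat-like here. They are the 5S ribosomal RNA gene array (chr8:123537281-123624343), a region beside Mir101c (chr9:3000064-3038220), the Rn18s-rs5 locus (chr17:39843021-39848834) and a region with no annotated gene (chr2:98662132-98667409). The last 3 also held RUNX2 peaks in every list of days 0 and 10 except 1, when the RUNX2 lists were nearly empty. The exception was Rn18s-rs5, with none in replicate 1 of day 10. The region beside Mir101c alone held 63 of the 108 and 51 of the 102 RUNX2 peaks of day 0, 20 and 16 peaks of day 3, and 64 of the 101 and 63 of the 97 of day 10. Counts below include these domains, and the closing section gives them without.

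On day 3 the 469 domains had median widths of 5710 bp in replicate 1 and 4890 bp in replicate 2, and 21 were 10 kb or wider in both. In replicate 1, 245 of them were a single called peak. The domains closest to the width limit were, just inside, at Dlx5 (4345 and 4000 bp), Fem1c (4826 and 4014 bp) and within Bicral (5330 and 4015 bp). Just outside were regions at Pdgfrb (4349 and 3999 bp), Phf21a (4299 and 3998 bp) and Fndc3b (4130 and 3995 bp).

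Outside the 4 repeat-like domains, the widest domain on day 3 lay between genes on chromosome 15 (chr15:85664080-85688549), 18053 bp from the hairpin of Mirlet7c-2 and 18769 bp from that of Mirlet7b. It measured 9248 and 23014 bp on day 0, 24470 and 24005 bp on day 3, and 6514 and 23460 bp on day 10. Nr2f2, which encodes an orphan nuclear receptor of mesenchyme, had a domain of 6593 and 17814 bp, 23565 and 21524 bp, and 4633 and 18671 bp on the same days. At Foxc1, a forkhead factor of skeletal development, the widths were 11263 and 16864 bp, 22597 and 21392 bp, and 7791 and 21990 bp. In these 3 domains the 2 libraries of day 0 differed from each other by more than 5 kb, and so did the 2 of day 10, so the days overlapped.

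Trps1, a GATA-type repressor active in growth plate chondrocytes, had 2538 and 9455 bp on day 0, 21982 and 21841 bp on day 3, and 9967 and 22629 bp on day 10, and both day 10 widths were above both day 0 widths. Zfhx3, a large homeodomain factor, held its domain inside the gene, and the 2 day 3 libraries differed there, with 23174 and 8803 bp. Also among the 15 widest were domains at the cell cycle inhibitor Cdkn1b (14857 and 14170 bp on day 3), at Tnrc18 (14573 and 14318 bp), at the zinc finger factor Zfp503 (14638 and 14229 bp), at Tsc22d2 (14548 and 13226 bp) and inside the aminopeptidase gene Aopep (15160 and 14292 bp). A pair of neighbouring domains on chromosome 4 lay at the noncoding genes Gm34568 and Gm49890, the second of them 18085 bp from the hairpin of Mir31. The domain over Mir125b-1 measured 14112 and 11136 bp on day 3. Whether the widest domains lie near hairpins more often than other regions was not tested.

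An end of a protein-coding gene lay within 1 kb of 382 domains, 81.4% (exact 95% interval 77.6 to 84.9%), against 64.5% of all shared regions. Regions of 3 to 4 kb had nearly the same share, 80.9%. A further 38 domains met only an end of another annotated gene, 38 lay inside a protein-coding gene away from its ends and 11 lay outside genes. An end here is either end of the whole annotated gene, its start or its far end. A domain called inside a gene can therefore cover an internal transcript start, as at Runx1, Sox6, Ptch1 and Pth1r. Of the 21883 protein-coding genes, 472 had a broad domain at an end, which is 2.16% of all and 3.89% of the 12144 that had any shared region there. Any shared region was at an end of 55.5% of all protein-coding genes.

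Gene lists fitting the tissue and some comparison lists were counted against that 2.16%, and no test was made on them because they were chosen with earlier results known. Immediate early genes, which respond within minutes to growth signals, had the highest share, 14 of 30 or 46.7%, and all 30 had some shared region. They included Jun and Junb, subunits of AP-1, Myc, Klf4, Klf6, Egr2, Ier2, Ccn1, and the mRNA decay factors Zfp36, Zfp36l1 and Zfp36l2. Osteoblast genes followed with 8 of 19, namely the collagen I genes Col1a1 and Col1a2, Sparc, the transcription factors Sp7, Dlx5 and Dlx6, the ligand Bmp4, and Tnfrsf11b, which encodes the RANKL decoy receptor. Among limb and mesenchyme factors 11 of 39 had one, among them Prrx1, Meis1, Meis2, Tbx3, Snai1 and Snai2.

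Of the FGF and MAPK list, 8 of 29 had a broad domain, including the receptor Fgfr2, the inhibitor Spry2, and Dusp4, Dusp5 and Dusp6, which encode MAP kinase phosphatases. In the BMP and TGF-beta list it was 7 of 29, namely the receptor Bmpr2, the inhibitory SMADs Smad6 and Smad7, the target genes Id1, Id2 and Id3, and the repressor Tgif1. None of the few ligands in these 2 lists had one, but the ligand genes Bmp4, counted with the osteoblast genes, and Fgf7, in no list and noticed afterwards, did. The WNT list had 4 of 30 (Fzd2, Fzd7, Ctnnb1 and Tcf7l2), the hedgehog and Notch list 3 of 21 (Gas1, Lfng and Maml2), the YAP and TEAD list 2 of 16 (Amotl2 and Ajuba) and the RUNX partners 4 of 32 (Tle3, Twist1, Hes1 and Zfp521).

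Chondrocyte transcription factors had a broad domain at an end in 6 of 30 genes (Sox9, Mef2d, Trps1, Foxc1, Fosl2 and Bhlhe40), and 5 more held one inside the gene (Sox6, Runx1, Runx2, Zbtb20 and Wwp2). Cartilage matrix genes had 5 of 28, namely Col2a1 and Col11a1, which encode chains of the cartilage collagen fibril, Col27a1, Acan, which encodes aggrecan, and Bgn, which encodes biglycan. Genes of mature chondrocytes had 2 of 19, Phospho1 and Vegfa, and Pth1r and Ptch1 held one inside. Housekeeping genes had 6 of 30, among them Actg1, Gapdh and Pgk1, the same count as the chondrocyte factors. The remaining lists of the cell had 3 to 5 genes each: the cell cycle 5 of 30, chromatin regulators 4 of 30, HOX genes 4 of 39, the long noncoding list 4 of 24 and the actin list 3 of 30.

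Lists of other tissues were short, and no lower share than the 2.16% of all protein-coding genes can be read from them. No gene of the 10 in each of the adipocyte, blood, endothelium, epithelium, neuron and skeletal muscle lists had one at an end, although 8 of the 10 adipocyte genes had some shared region. Tfap2a of the epithelium list held one inside the gene. The tendon and fibroblast list had Col3a1 and the pluripotency list had Sox2, whose domain measured 2223 and 5773 bp on day 0, 9726 and 9401 bp on day 3, and 5129 and 9696 bp on day 10.

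**Figure D1:**
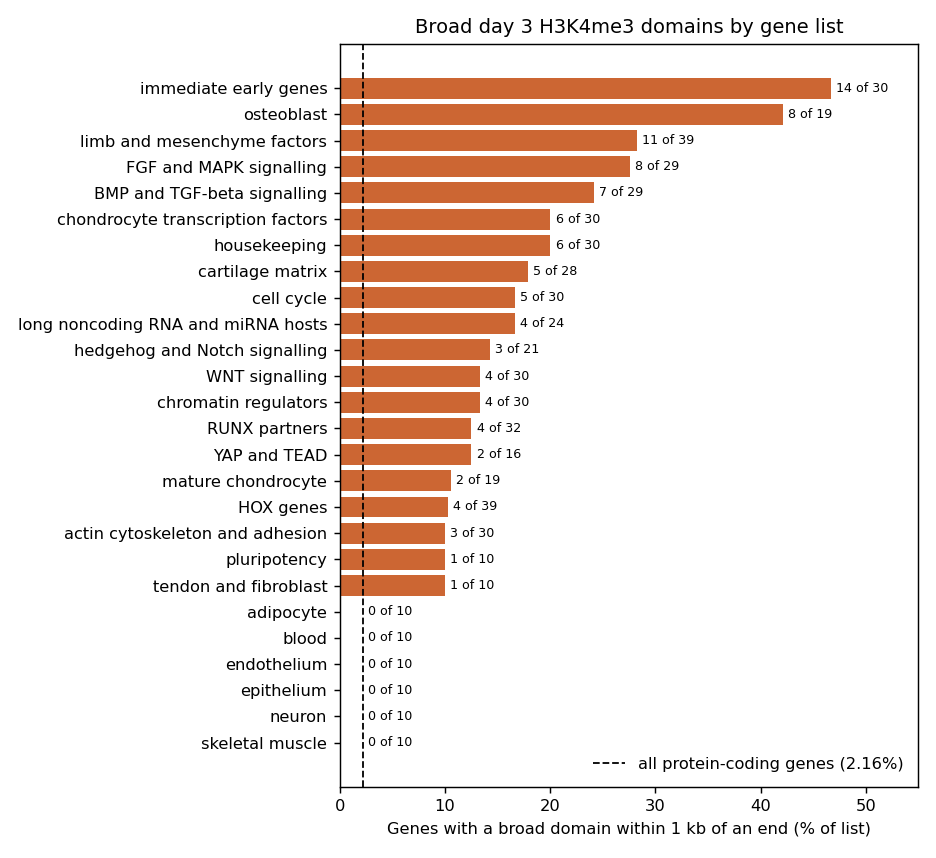
Share of each gene list with a broad day 3 H3K4me3 domain within 1 kb of a gene end (x axis, % of the listed genes), with the counts beside the bars. The dashed line is the 2.16% of all protein-coding genes. Immediate early genes (46.7%) have the longest bar, and 6 lists of other tissues are at 0 of 10.

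Nearly all domains were marked on the other days too. A region overlapped 459 domains (97.9%) in both day 10 libraries, against 78% of all shared regions, and 454 (96.8%) in both day 0 libraries, against 67.2%. Wide regions offer more bases to overlap, and the shares for regions of 3 to 4 kb were 94.6% on day 10 and 91.9% on day 0. The widths of the domains differed more between libraries. The median width over the 469 was 2949 and 4410 bp on day 0, 5710 and 4890 bp on day 3, and 3278 and 5225 bp on day 10. Because the rule required wide regions on day 3, no rise to that day or fall after it can be read from these medians. The overlapping region was itself 4000 bp or wider in both day 10 libraries in 125 domains (26.7%, exact 95% interval 22.7 to 30.9%), against 0.76% of all shared regions, and in both day 0 libraries in 106 (22.6%, 18.9 to 26.7%), against 0.647%. These shares rest on the shorter list of each day. They were set against mostly narrower regions, so their excess largely follows from choosing members at 4000 bp. The single libraries of day 10 had 125 and 438 of the domains at 4000 bp or more, and those of day 0 had 114 and 290.

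**Figure D2:**
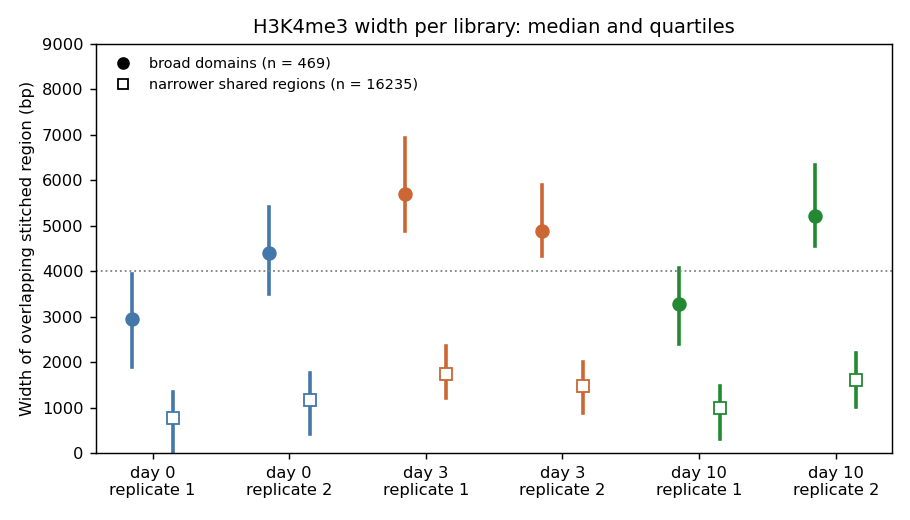
Width of the stitched H3K4me3 region overlapping each day 3 region (y axis, bp) in the 6 libraries, as the median (symbol) and quartiles (line). Filled circles are the 469 broad domains and open squares the 16235 narrower shared regions, and the dotted line is the 4000 bp minimum. Replicate 1 is below replicate 2 on days 0 and 10, with broad-domain medians of 2949 and 4410 bp on day 0, 5710 and 4890 bp on day 3, and 3278 and 5225 bp on day 10.

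In 69 domains (14.7%) the region was 4000 bp or wider in all 6 libraries. These included Nr2f2, Foxc1, Cdkn1b, Tnrc18, Zfp503, the limb factors Meis1, Meis2, Tbx3, Irx5 and Foxf2, the AP-1 subunits Fosl2 and Jun, Myc, Smad6 and Smad7, and Vegfa. Runx2 held its domain inside the gene, with 4571 and 8609 bp on day 0, 11230 and 8958 bp on day 3, and 4869 and 8900 bp on day 10. Sp7, a transcription factor of osteoblasts, had 4656 and 5161 bp, 8911 and 5511 bp, and 4707 and 6058 bp, with the days 0 and 10 overlapping. In 25 domains the region was under 4000 bp in all 4 libraries of days 0 and 10.

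The summed H3K4me3 peaks inside the domains covered 1556 and 2712 kb on day 10 (mean 2134 ± 818 kb, SD, n = 2), against 1373 and 2148 kb on day 0 (mean 1760 ± 548 kb, SD, n = 2). The log2 ratio of day 10 over day 0 was 0.26 (two-sided exact permutation test over libraries, p = 0.667, where the smallest p possible is 0.333), and the groups overlapped. Over all shared regions the same ratio was 0.35. Leaving out replicate 1 of day 0 gave -0.06 and leaving out replicate 2 of day 10 gave -0.14, so the direction was not settled.

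Both day 10 widths were above both day 0 widths in 70 domains (14.9%), against 20.3% of all shared regions, and both were below in 3 (0.640%), against 0.485%. The share wider on day 10 was thus below that of all shared regions. It was close to the 14.6% of regions of 3 to 4 kb and the 15.3% of those of 2 to 3 kb, whereas regions of 1 to 2 kb had 25.3%. In 20 domains (4.26%) the region was 4000 bp or wider in both day 10 libraries and in neither day 0 library, against 0.126% of all shared regions, and in 2 (0.426%) it was so in both day 0 and neither day 10 library, against 0.012%. Members were chosen at this same width on day 3, so shares above those of mostly narrower regions largely follow from the rule. These 20 domains were singled out after their values were seen. Their number depends on the libraries: leaving out replicate 1 of day 10 gave 146, and leaving out replicate 2 of day 0 gave 53. In both settings 2 domains were broad on day 0 and not on day 10. Leaving out replicate 1 of day 0 gave 23, against 6 the other way. Leaving out replicate 2 of day 10 gave 20, against 37 the other way, so the direction depends on the libraries too. Between same-numbered libraries, 53 domains were 4000 bp or wider on day 10 and not day 0 in replicate 1, against 42 the other way, and 154 against 6 in replicate 2.

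A gene of the 3 chondrocyte lists lay at or around 8 of these 20 domains (40%), against 21 of all 469 broad domains (4.48%), a difference that was not tested because the 20 were chosen on these data. Acan had the only domain with no region in either day 0 library, with 0 and 0 bp on day 0, 5862 and 4910 bp on day 3, and 4586 and 5257 bp on day 10 (chr7:79051951-79057812). Col2a1 (chr15:97998908-98005233) had 1704 and 2413 bp on day 0, 6326 and 4958 bp on day 3, and 4121 and 6630 bp on day 10. Col11a1 (chr3:114028160-114038211) had 507 and 2012 bp, 10052 and 7009 bp, and 5611 and 8899 bp on the same days. In all 3 the widths of days 3 and 10 were above those of day 0, an order that the choice of these domains fixed. Sox9, the transcription factor that drives these genes, was already near the limit on day 0 with 3608 and 3786 bp, had 8059 and 5890 bp on day 3, and reached 4897 and 6792 bp by day 10 (chr11:112779620-112787678).

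The domain over Mir140 (chr8:107543164-107554685), the hairpin of a cartilage miRNA whose 3p arm is printed above, lies inside its host gene Wwp2. It measured 3167 and 3386 bp on day 0, 11522 and 8276 bp on day 3, and 4838 and 9330 bp on day 10. A further domain inside Wwp2, at the noncoding gene Gm51547, had 719 and 729 bp, 11643 and 4905 bp, and 3064 and 4345 bp. Phospho1, which encodes a phosphatase of matrix mineralisation, had 1146 and 1491 bp, 5536 and 5225 bp, and 4296 and 5979 bp. Inside Pth1r, the receptor of parathyroid hormone and its related protein, the domain had 1537 and 2193 bp, 8075 and 4779 bp, and 7737 and 10261 bp. Bhlhe40, a basic helix-loop-helix repressor, had 3166 and 3367 bp, 10501 and 7557 bp, and 4877 and 9302 bp. Hes1, a repressor of the same fold that Notch signals induce, had 1559 and 1713 bp, 8651 and 5761 bp, and 4254 and 8425 bp.

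Hes1 and the other 11 of the 20 domains lay at no gene of the chondrocyte lists. Bcl6, a transcriptional repressor, had 2588 and 3512 bp on day 0, 11566 and 11049 bp on day 3, and 5823 and 11725 bp on day 10. At Eif4b and Tns2, neighbours that encode a translation factor and a focal adhesion protein, the widths were 843 and 1424 bp, 10204 and 8702 bp, and 6842 and 9136 bp. The rest lay at Cnnm4, Tent5a, Fam72a with Srgap2, Ccdc51 with Plxnb1, Car11 with Dbp and Sphk2, Efnb1, Foxo3, Mxi1 and Jade2. Foxo3 was close to the limit, with 4227 and 4833 bp on day 10 against 3944 and 3503 bp on day 0.

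**Figure D3:**
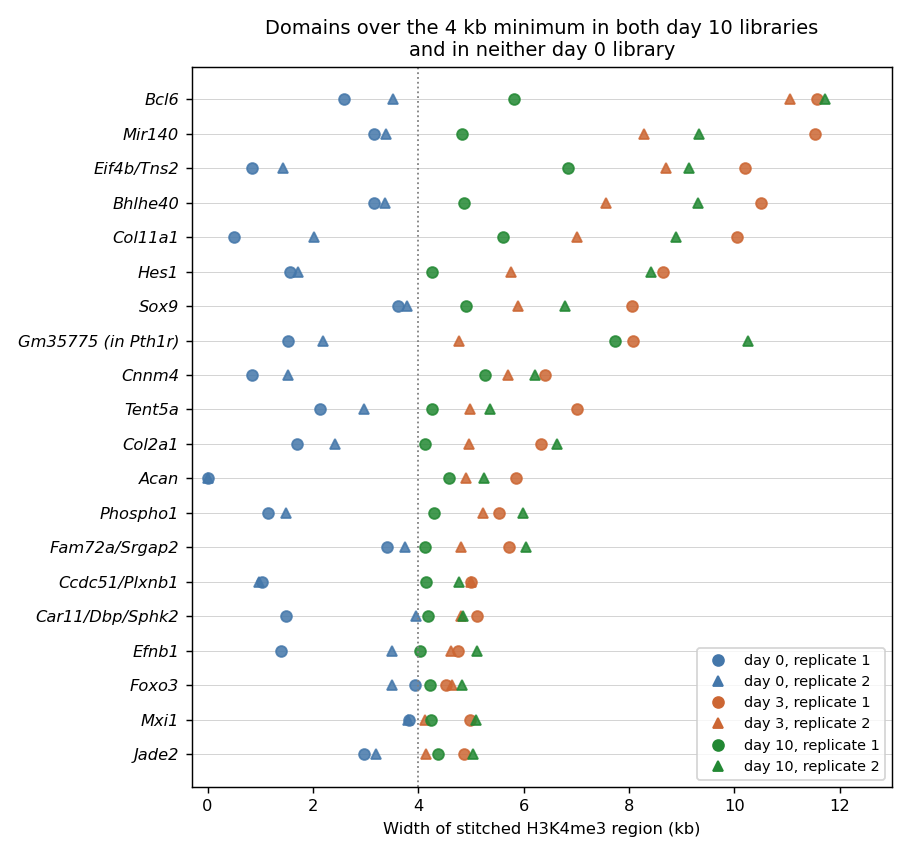
Width of the H3K4me3 region (x axis, kb) in each of the 6 libraries for the 20 domains that were 4 kb or wider in both day 10 libraries and in neither day 0 library, named by the gene at the domain. Colours are days, circles are replicate 1, triangles replicate 2, and the dotted line is the 4 kb minimum. Acan sits at 0 in both day 0 libraries and between 4586 and 5862 bp in the other 4.

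Both day 10 widths exceeded both day 0 widths in 20.3% of all shared regions and 14.9% of the broad domains, and by list this was so at 4 of the 5 cartilage matrix genes (Acan, Col2a1, Col11a1 and Col27a1) and at 4 of the 6 chondrocyte factors with a domain at an end (Sox9, Mef2d, Trps1 and Bhlhe40). Col27a1 had 1009 and 649 bp on day 0, 4826 and 4329 bp on day 3, and 3803 and 4847 bp on day 10. Mef2d had 1467 and 2666 bp, 9293 and 8514 bp, and 3655 and 9477 bp. The exceptions were Bgn, with 1410 and 5013 bp on day 10 against 2644 and 4693 bp on day 0, and Foxc1 and Fosl2, whose days overlapped. With a domain inside the gene it was so at 2 of 5 chondrocyte factors (Sox6 and Wwp2). For mature chondrocyte genes it was 1 of 2 at an end (Phospho1) and 1 of 2 inside (Pth1r). At an end, housekeeping genes had 1 of 6, RUNX partners 1 of 4 and the FGF and MAPK list 0 of 8. Acan, Col2a1, Col11a1, Sox9, Bhlhe40, Phospho1, Pth1r and the RUNX partner Hes1 were among the 20 domains already chosen on these widths. So was the domain over Mir140 inside Wwp2. The mature chondrocyte and RUNX partner counts therefore come only from domains chosen this way. These counts are small and were not tested.

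At the osteoblast genes the count was 0 of 8, and at the immediate early genes 1 of 14 (Klf4), beside the same 20.3% and 14.9%. With so few genes, neither count can be told from those shares. Col1a1, with 3733 and 9665 bp on day 0, 12524 and 9544 bp on day 3, and 2523 and 8865 bp on day 10, and Col1a2, with 3306 and 12583 bp, 11490 and 8765 bp, and 3925 and 8687 bp, overlapped between days 0 and 10. Bmp4, a growth factor of bone and cartilage, was the reverse case, with 6374 and 7510 bp on day 0, 6830 and 4325 bp on day 3, and 3768 and 4599 bp on day 10. It was the only protein-coding gene end among the 3 domains with both day 10 widths below both day 0 widths, and the others were the Rn18s-rs5 locus and a domain inside Itga11. Whether the lists differ from each other was not tested.

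RUNX2 was set beside the domains on day 3, the only day on which its lists were long, with 19319 and 16859 peaks. A RUNX2 peak lay inside 462 of the 469 domains in replicate 1 (98.5%), against 88.8% of all shared regions, and inside 467 (99.6%) in replicate 2, against 84.5%. Both libraries had one in 462 domains (98.5%, exact 95% interval 96.9 to 99.4%), against 83.9%. The share was 96.9% in regions of 3 to 4 kb, 96.1% in those of 2 to 3 kb, 88.8% in those of 1 to 2 kb and 43.6% in those under 1 kb. On days 0 and 10, 3 domains met a RUNX2 peak in at least 1 list, all 3 repeat-like.

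A wide region offers more room for a peak, so the count was repeated in the 1 kb at the strongest H3K4me3 summit of each region. There, 91.5% of the broad domains had RUNX2 in both libraries (88.6 to 93.8%), against 83.4% of all shared regions. The share was 92.8% (89.92 to 95.05%) in regions of 4 kb or more in H3K4me3 replicate 1 only, 95.9% (94.7 to 96.9%) in those of 3 to 4 kb and 95.9% in those of 2 to 3 kb. The 2 RUNX2 libraries gave opposite orders. In RUNX2 replicate 1 the share was 91.5% in the broad domains, against 96.4% in regions of 3 to 4 kb, and in replicate 2 it was 99.1%, against 96.9%. Among domains at protein-coding gene ends alone, the share with a peak anywhere was 98.4%, beside 98.5% for regions of 3 to 4 kb at such ends.

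RUNX2 peaks numbered 1041 and 959 inside the domains, or 0.330 and 0.304 per kb, against 0.442 and 0.389 per kb in regions of 3 to 4 kb and 0.643 and 0.615 per kb in those of 1 to 2 kb. Peaks per kb were lowest in the 2 widest classes in both libraries. The median number of peaks per region was 2 in the broad domains and 1 in regions of 3 to 4 kb and of 1 to 2 kb, in both libraries. Peaks per kb divide such small counts by the width, so sparser binding cannot be read from their order. At least 2 peaks were present in 351 domains (74.8%) in replicate 1, against 16.2% of all shared regions, and in 290 (61.8%) in replicate 2, against 12.1%. Wide regions have more room for 2 peaks. The shares were 49.0 and 33.0% in regions of 3 to 4 kb. They were 48.6 and 43.5% in regions of 4 kb or more in H3K4me3 replicate 1 only. The strongest RUNX2 peak of a domain had a median fold enrichment, the authors' value, of 3.92 in replicate 1 and 13.1 in replicate 2. In regions of 1 to 2 kb it was 8.09 and 10.3, so the broad domains were lower in replicate 1 and higher in replicate 2, and no direction holds for both.

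**Figure D4:**
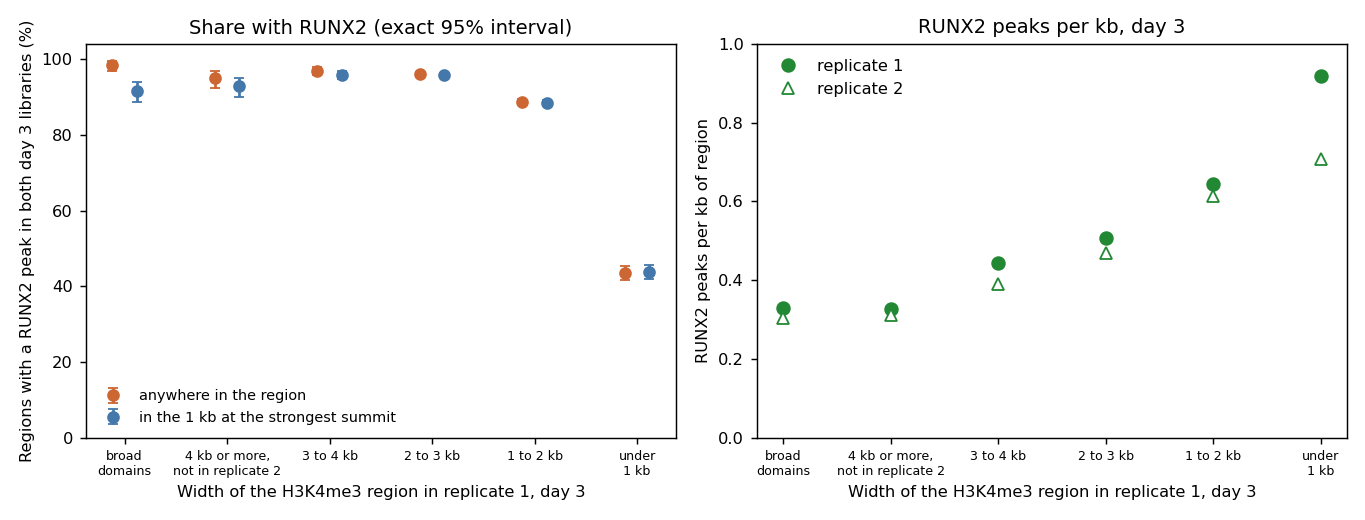
Left, share of H3K4me3 regions (y axis, %) with a RUNX2 peak in both day 3 libraries by width in replicate 1, anywhere in the region (orange) and in the 1 kb at its strongest summit (blue), with exact 95% intervals. Right, RUNX2 peaks per kb in each library. The broad domains stand at 98.5% and 91.5%, and at 0.330 and 0.304 peaks per kb.

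Outside the repeat-like regions, the domains with the most RUNX2 peaks were at Tnrc18 (6 and 4 in the 2 libraries), Nr2f2 (5 and 5), Gm34568 (4 and 6) and the chromosome 15 region near Mirlet7c-2 (7 and 3). Tpm1, which encodes a tropomyosin, and Gm32328 had 3 and 6 each, and Setd1b, which encodes a methyltransferase of this very histone residue, had 5 and 4. Domains without RUNX2 in either library numbered 2, at Skor1 and Nkx1-1, and 5 had peaks in replicate 2 alone. These 5 were at Tsc22d2, Wincr1, Dmrt3 and, in 2 neighbouring domains, Sp9. All but Tsc22d2 had no region, or one under 1 kb, in replicate 1 of day 0, as Dmrt3 shows with 0 and 1381 bp on day 0, 5383 and 4457 bp on day 3, and 0 and 1956 bp on day 10. Of all 469 domains, 15 (3.20%) had no region in that library, and those under 1 kb were not counted. This pattern was noticed afterwards, and a link with RUNX2 was not tested. Every list gene named above with a broad domain had a RUNX2 peak in both day 3 libraries. So did 98.5% of all 469 domains, so this is not particular to these genes. At Acan the strongest RUNX2 peak had a fold of 3.69 in replicate 1 and 5.20 in replicate 2, at Col2a1 4.26 and 11.1, and at Sox9 3.59 and 14.4.

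The position of the mark was read in 157 domains that met transcript starts of a single gene within 500 bp. The domain reached further into the gene than before it in 134 of them (85.4%, exact 95% interval 78.8 to 90.5%), with a median of 3886 bp downstream and 1582 bp upstream of the start. In 136 the gene was longer than the downstream part, so that the mark ended inside it. RUNX2 summits in these domains numbered 303 and 264, and 60.7% and 62.5% of them lay within 1 kb of the start, where 31.4% of the domain bases lie. The nearest summit was a median of 437.5 and 452.5 bp from the start. Narrower regions were not measured this way, so whether these positions are particular to broad domains was not tested.

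RUNX2 summits lay on both sides of the start in the 2 libraries, with few just upstream of it. In 250 bp bins the highest count, 53 in each library, was centred 375 bp downstream, and the bin centred 125 bp downstream held 20 in each. The bin centred 125 bp upstream held 4 in each, and the one centred 375 bp upstream held 23 and 20. H3K4me3 peaks showed a shallower dip at the same bin, where 93.0 and 75.8% of the domains were covered on day 3, against 97.5 and 89.8% in the bin centred 375 bp upstream. Downstream of the start, 2875 bp into the gene, 26.1 and 51.6% of the domains were covered on day 0, 80.9 and 68.2% on day 3, then 25.5 and 73.9% on day 10. The domains were chosen for width on day 3, so no rise to that day or fall after it can be read from this coverage.

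**Figure D5:**
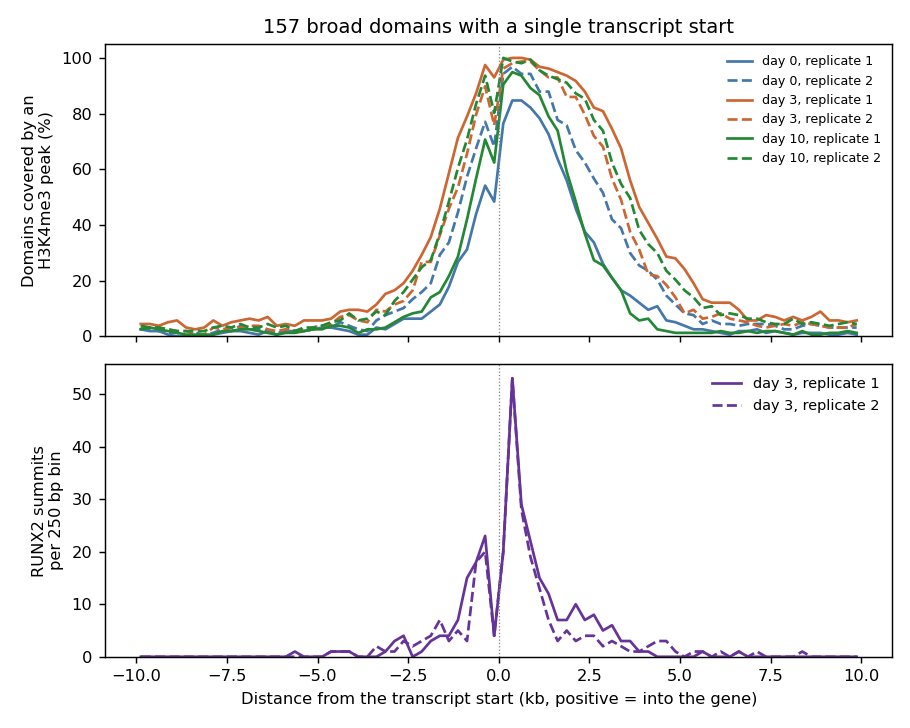
Upper panel, share of the 157 single-start domains covered by an H3K4me3 peak (y axis, %) in 250 bp bins by distance from the transcript start (x axis, kb, positive into the gene) in the 6 libraries. Lower panel, number of RUNX2 summits per bin in the 2 day 3 libraries. The highest bin holds 53 summits in each library, 375 bp downstream of the start.

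Promoter windows were compared for hexamers on both strands. TGTGGT, a core that runt-domain factors bind, was in 7.26% of the 358 protein-coding windows whose start lay in a broad domain, 11.2% of the 9432 in other shared regions and 15.3% of all 17491. TGCGGT was in 10.1%, 10.1% and 7.21% of the same windows. TATAAA, the TATA box, was in 10.1% of the broad-domain windows, 6.01% of those in other shared regions and 13.3% of all. GGGCGG, the GC box, was in 72.1%, 69.8% and 45.9%, TGANTCA, the AP-1 site, in 3.35%, 4.15% and 7.05%; N stands for any base, and matches of different motifs can overlap. Windows in broad domains held a median of 23 CpG dinucleotides, those in other shared regions 22 and all windows 13.

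Among the miRNAs printed above, Mir199a-2 and Mir214 share a domain at the noncoding gene Dnm3os, which measured 1387 and 6600 bp on day 0, 10369 and 7302 bp on day 3, and 2868 and 6804 bp on day 10. Mirlet7i had 2295 and 6149 bp, 6134 and 6075 bp, and 3103 and 6088 bp. At Mir21a, beside an end of Vmp1, the widths were 4591 and 6003 bp, 9585 and 6416 bp, and 2686 and 10178 bp. Mir22, with its host Mir22hg, had 2341 and 4555 bp, 5383 and 4450 bp, and 2251 and 4371 bp. The domain of Mir322, at the edge of the host C430049B03Rik, had 641 and 3457 bp, 5151 and 4818 bp, and 3108 and 4631 bp. In each of these the days 0 and 10 overlapped, and Mir140 was the exception, with both day 10 widths above both day 0 widths. All had a RUNX2 peak in both day 3 libraries, as did 98.5% of the 469 broad domains.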

How the data were processed

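H3K4me3 and RUNX2 chromatin immunoprecipitation libraries of ATDC5 cells, 2 per antibody and day, were analysed from 12 peak lists, called per library. The reads were 75 bp, per the labels. The tools named are MACS2, HISAT2 2.2.0, Trim Galore and FastQC, per the submitters' processing notes. Further versions, and all settings, were not given in the sources used here. In the deposited narrowPeak lists the authors give the position and summit of a peak, its fold enrichment (a linear ratio), its p-value and q-value as −log10, and a score that equals 10 times the −log10 q without decimals. These values depend on a library's own depth, which is unknown, and were compared only among peaks of the same list. A region without a peak had none called at that depth, and a narrow-peak caller divides wide domains. The notes name GRCm39, but the summits matched the RefSeq genes of GRCm38 (37.9 to 70.1% within 1 kb of a gene end, 6.12 to 7.98% after a shift of 20 kb), and the lists were read as GRCm38.

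Overlap meant at least 1 bp. The width of a domain on a given day is that of the widest stitched region overlapping it, or 0. Scripts used Python 3.11.15, pandas 2.3.3, NumPy 2.4.6 and SciPy 1.17.1 and were tested on simulated peaks. Intervals are exact Clopper-Pearson and cover counting error only. The summed width on days 10 and 0 was compared by an exact permutation of libraries, which with 2 against 2 cannot go below 0.333, and differences between libraries may be technical. The named genes were those of the 15 widest domains, members of the chondrocyte, cartilage, osteoblast, RUNX, limb and signalling lists with a domain, the 3 domains on each side of the width limit, domains without a region on day 0 or 10, and those with the most or no RUNX2 peaks. The members, the 26 lists (585 genes, all found in the RefSeq table) and the tests were chosen with earlier results of these data known. Alternatives are given in the closing section.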

Additional observations from a re-analysis of the deposited data

How the results depend on the processing

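The alternatives changed the gap, the minimum width, the peak threshold, the number of peaks per list, the required overlap, or the libraries used. The number of domains, 469, was 1278 with a minimum of 3000 bp and 212 with 5000 bp, and 486 to 900 from a single day 3 library. The median of the mean day 3 width, 5291 bp, became 3950 and 6571 bp under these 2 minimum widths and 4883 to 4924 bp without either library. The share broad in both day 10 libraries, 26.7%, was 26.7 to 93.4% without a library of day 10 and 14.1 to 25.7% without one of day 3. On day 0 it was 22.6%, with 24.3 to 61.8% without a library of day 0 and 11.9 to 21.8% without one of day 3. Counting any stitched region gave 97.9% on day 10 and 96.8% on day 0.

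The share with RUNX2 in both libraries, 98.5%, was 99.3% with a gap of 500 bp, 99.3% for peaks with a −log10 q of at least 5 and 91.5% in the 1 kb at the strongest summit. It was 96.7 to 96.9% without a day 3 H3K4me3 library and 98.5 to 99.6% without a RUNX2 library. The share at a protein-coding gene end, 81.4%, was 89.6% for all annotated genes, 78.6 to 78.8% from a single day 3 library and 68.0% for transcript starts of the promoter table, an alternative chosen after seeing the data. That table lacks some genes. Without the 4 repeat-like domains, also added later, no result moved, and RUNX2 was in both libraries at 98.5% of 465 domains.

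The log2 ratio of width on day 10 over day 0, 0.26, ranged from -0.14 to 0.66 without a library of day 0 or day 10, was reversed without replicate 1 of day 0 (-0.06) or replicate 2 of day 10 (-0.14), was 0.24 to 0.29 without one of day 3, and stayed above 0 otherwise. With the replicate number as a block, the value was 0.26 (sign flips of 2 pairs, exact p = 0.5). Across the domains, deviations of replicate 1 from the day mean correlated at 0.55 between days 0 and 10 but at -0.14 and -0.33 with day 3, so the numbers are not taken to pair the libraries. The count of 20 domains broad on day 10 and not on day 0, a result added after seeing the data, was 64 with a minimum width of 3000 bp, 5 with 5000 bp and 15 with equal numbers of top peaks. It was 53 and 154 between same-numbered libraries, 20 to 146 without a library of day 0 or 10 and 20 to 21 from a single day 3 library. The opposite count, domains broad on day 0 and not on day 10, was 2, but 37 without replicate 2 of day 10. The cause was not tested. Unknown read depth limits every width.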
